A study of Mus musculus with 12 samples.

Results

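Nuclear receptors are transcription factors that read small fat-soluble signals: steroid and thyroid hormones, retinoic acid, oxysterols, bile acids and fatty acids. Most bind DNA as a pair, many of them with a retinoid X receptor (RXR) as the partner, and then exchange corepressors for coactivators when a ligand is bound. In the liver they are known for controlling bile acid, lipid, drug and glucose metabolism, and several of them belong to the network that makes a hepatocyte. The 36 receptor genes described here were taken by their gene symbols from the deposited table of 30743 rows, and all 36 were found.

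Whole livers of male C57BL/6J mouse fetuses were taken at 15 ± 0.5 dpc (days post coitum) from dams fed a control diet with 13.5 kcal% fat or a high-fat diet (HFD) with 60 kcal% fat for 12 to 14 weeks. There were 6 livers in each group, and their polyA-selected RNA was sequenced. The value used is an average log2 CPM (read counts scaled to the same total, 1e+06, in every library) that the authors formed over all 12 libraries, so each gene has 1 pooled level, with no spread between livers and no separate value for a diet. The diets were therefore not compared, and no test was made between receptors. The intervals given cover counting error only. In RNA of whole livers, fewer cells of a type and less RNA per cell cannot be told apart.

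Taking the lowest value of the table off each gene on the linear scale gave a level in CPM. A single read over the 12 libraries was worth 0.00635 CPM, and the mean effective library size was 1.31e+07 reads. On this scale 33 of the 36 receptors had reads. The share listed at 0 was 8.33% of the receptors, against 36.1% of all rows and 22.2% of the 18368 protein-coding rows. Above 1 CPM lay 19, or 52.8% of the receptors, against 31.9% of all rows and 44.0% of the protein-coding rows. *Rxra*, the main RXR of liver, had the highest level both in CPM (205) and in CPM per kilobase of exon (37.5), ahead of *Ppard* in CPM (42.8) and of *Nr2f6* per kilobase (12.0). Only 5 receptors exceeded 10 CPM, 14 lay between 1 and 10 CPM, 14 had reads but did not exceed 1 CPM, and *Hnf4a*, *Nr4a3* and *Rxrb* were listed at 0.

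**Figure D1:**
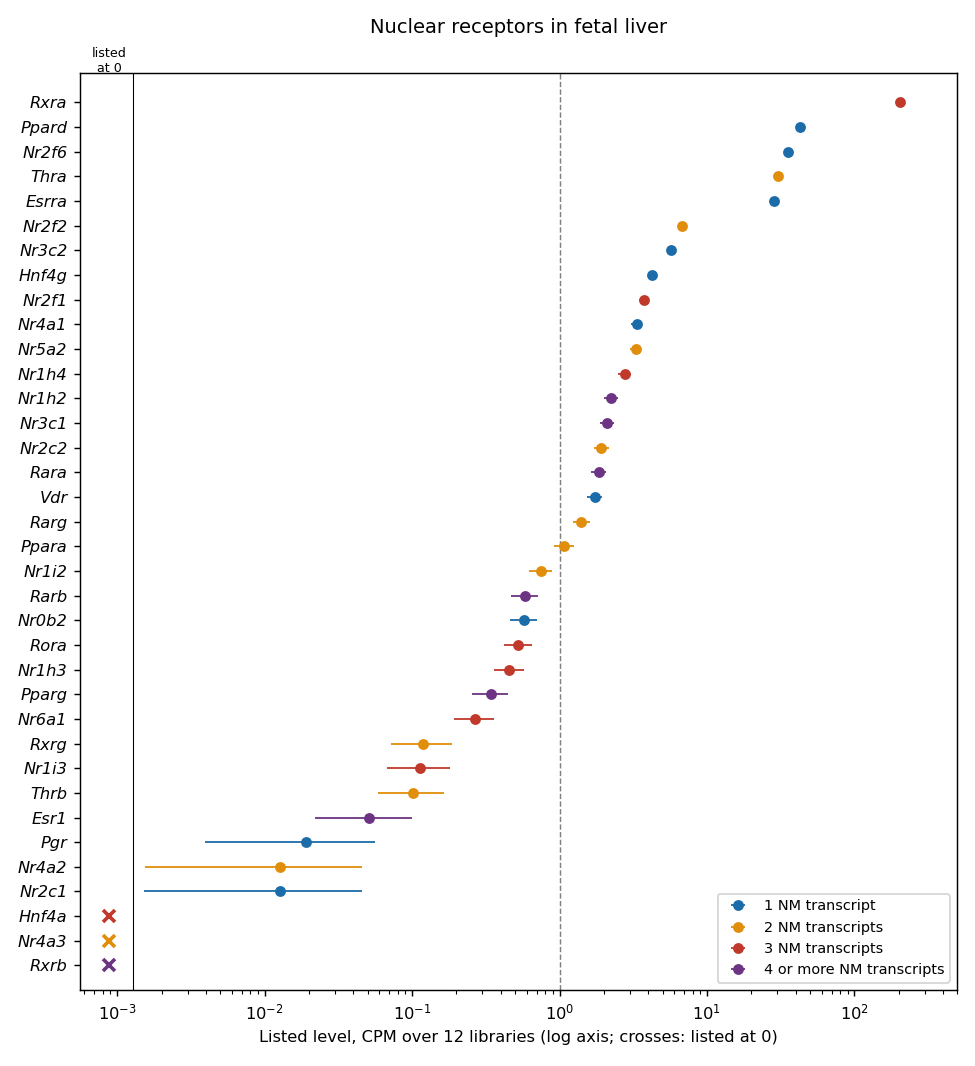
Listed level of the 36 nuclear receptors in CPM over the 12 libraries, on a log axis, with 95% Poisson intervals of the estimated reads (counting error only). Colours give the number of RefSeq NM transcripts and crosses mark genes listed at 0. *Rxra* stands alone at 205 CPM, 4 receptors lie from 28.3 to 42.8 CPM, and the rest lie under 7 CPM.

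A listed level is not always the full expression of a gene. *Hnf4a*, a defining transcription factor of hepatocytes, was listed at 0 in a tissue whose hepatocyte genes *Alb* and *Afp* were listed at 63314 and 54525 CPM. Genes that every cell uses were listed low in the same table: the ubiquitin gene *Ubb* stood at 0, the cyclophilin gene *Ppia* at 0.0127 CPM and the glycolytic gene *Gapdh* at 5.05 CPM. These genes are known to have repeats or near-identical copies elsewhere in the genome, so their own values are uncertain. Others were high, such as *Actb* at 2581 CPM and the elongation factor gene *Eef1a1* at 5951 CPM. For this reason *Hnf4a*, *Nr4a3* and *Rxrb* are only said to be listed at 0, and no absence is read from it.

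The listed level moved with the number of transcripts that RefSeq gives for a gene. RefSeq marks its curated messenger RNAs with the prefix NM, and the number of these in the GRCm38.p6 annotation was taken for each gene. Among 182 genes of complexes that every cell needs (proteasome, RNA polymerase II, chaperonin, respiratory complex I, mitochondrial ribosome, splicing factor 3 and initiation factor 3), the median was 75.6 CPM for the 134 genes with 1 transcript. It was 32.6 CPM for the 34 with 2, and 0.0221 CPM for the 8 with 3. Only 6 genes of these complexes had 4 or more transcripts, and their median was 0.696 CPM. The list of complexes was drawn up after the low values had been seen. The order did not hold for every gene, since *Ppia* has 1 NM transcript.

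The receptors were mostly genes with several transcripts. Of the 36, 10 had 1 NM transcript, with a median of 3.80 CPM and 7 above 1 CPM. The other 26 had 2 or more, with a median of 0.665 CPM, 12 above 1 CPM and all 3 genes listed at 0. *Rxra* went against this order, since it has 3 NM transcripts and the highest level. *Nr2c1* and *Pgr* did so in the other direction, with 1 transcript each and 2 and 3 estimated reads. Protein-coding genes in general had medians of 0.667 CPM with 1 transcript and 0.382 CPM with 2 or more, and 47.4% and 38.7% of them lay above 1 CPM. Listed at 0 were 2759 of 11286 with 1 transcript and 1311 of 7077 with 2 or more. In general, therefore, a listed 0 was not more frequent among genes with more transcripts. The part of the transcript number in the level of any receptor was not tested.

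**Figure D2:**
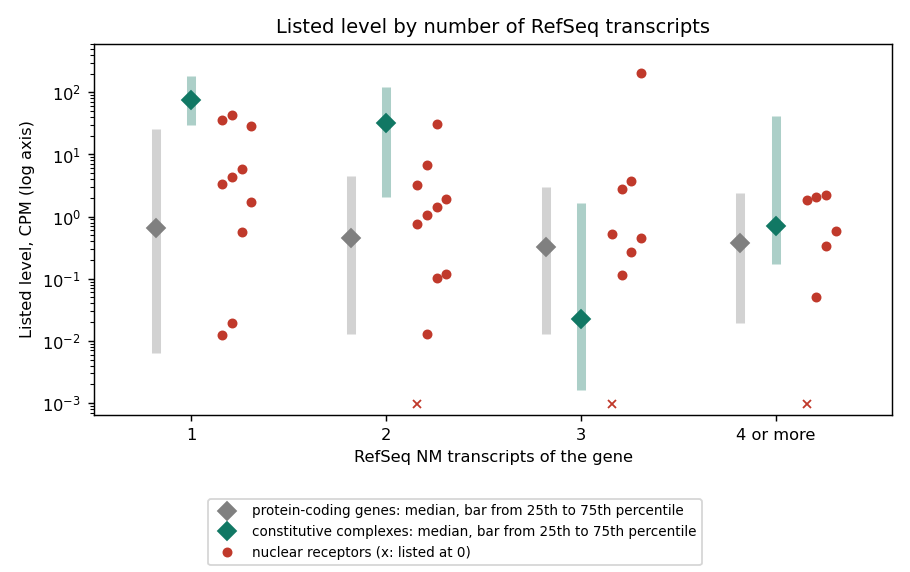
Listed level in CPM (log axis) by the number of RefSeq NM transcripts. Grey and green diamonds are medians of protein-coding genes and of genes of constitutive complexes, bars run from the 25th to the 75th percentile (clipped at the bottom where the 25th percentile is 0), and red points are the receptors, with crosses at 0. The green median is 75.6 CPM at 1 transcript, 32.6 CPM at 2, 0.0221 CPM at 3 (8 genes) and 0.696 CPM at 4 or more (6 genes).

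Because a longer transcript yields more reads, levels of different receptors are compared per kilobase of exon (the union of all exons of the gene in GENCODE M21). The union ran from 1132 bases for *Nr0b2* to 14935 bases for *Nr2c2*. On the scale of CPM per kilobase, *Rxra* had 37.5, *Nr2f6* 12.0, *Thra* 6.62, *Esrra* 6.45 and *Ppard* 5.70. The order after *Rxra* depended on the length, since *Ppard* came next with coding length (32.5, against 30.5 for *Nr2f6*). The same 5 were the highest with each length and in CPM, and they held 86.6% of the summed CPM per kilobase of all 36 receptors. Among all genes with reads, *Rxra* lay at percentile 92.8 per kilobase and the other 4 between 76.3 and 83.3. Next came *Hnf4g* with 1.62, *Nr1h4* with 1.20, *Nr4a1* with 0.951, *Nr3c2* with 0.886, *Nr2f2* with 0.784, *Nr2f1* with 0.734 and *Nr1h2* with 0.667 CPM per kilobase. At this length the counting intervals of *Thra* (6.44 to 6.81) and *Esrra* (6.26 to 6.64) overlapped. So did those of *Nr4a1* (0.871 to 1.04) and *Nr3c2* (0.829 to 0.946), and those of *Nr3c2* and *Nr2f2* (0.738 to 0.833). The intervals of *Nr2f2*, *Nr2f1* (0.676 to 0.795) and *Nr1h2* (0.599 to 0.740) all overlapped each other.

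The shared partners come first by role. In GRCm38, the assembly behind mm10, *Rxra* occupies bases 27676440 to 27762957 of chromosome 2, on the forward strand. Its 205 CPM (interval 202 to 207) came from an estimated 32230 reads, at percentile 96.3 of the rows with reads. *Rxrg*, known mainly from muscle and brain, had 0.119 CPM from 19 reads, and *Rxrb*, known as a broadly expressed form, was listed at 0. *Rxrb* lies on chromosome 17 from 34031812 to 34038399 and has 4 NM transcripts. Per kilobase, *Rxra* stood 722 times above *Rxrg*, with a counting interval from 457 to 1185. The ratio was 739 with the longest transcript and 1703 with coding length. The intervals hold for the length used and do not cover that choice.

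The bases before the RefSeq start sites of 4 receptors are printed here because they mark the extremes of level and of type: *Rxra*, the highest, *Hnf4a*, listed at 0, and *Nr0b2* and *Nr1i3*, both typical of hepatocytes. Each run is the 250 bases just before a start, read 5′ to 3′ on the strand of the gene from RefSeq's GRCm38.p6 table, and capitals mark every CG pair. *Rxra* and *Hnf4a* have 2 starts each in that table. The windows are chr2:27676951-27677200 and chr2:27709042-27709291 for *Rxra*, chr2:163506607-163506856 and chr2:163546905-163547154 for *Hnf4a*, chr4:133553126-133553375 for *Nr0b2* and chr1:171213720-171213969 for *Nr1i3*, all on the forward strand.
Rxra, upstream start: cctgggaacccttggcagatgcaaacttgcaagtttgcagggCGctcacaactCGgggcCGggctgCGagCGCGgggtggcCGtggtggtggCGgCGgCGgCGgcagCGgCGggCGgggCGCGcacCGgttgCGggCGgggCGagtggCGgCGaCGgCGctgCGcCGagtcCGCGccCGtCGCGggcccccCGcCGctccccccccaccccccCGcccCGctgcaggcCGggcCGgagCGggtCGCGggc
Rxra, downstream start: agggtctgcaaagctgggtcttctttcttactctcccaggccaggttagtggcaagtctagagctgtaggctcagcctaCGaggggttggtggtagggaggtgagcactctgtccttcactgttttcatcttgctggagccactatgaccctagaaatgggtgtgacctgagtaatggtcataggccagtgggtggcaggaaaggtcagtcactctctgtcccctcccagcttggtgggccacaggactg
Hnf4a, upstream start: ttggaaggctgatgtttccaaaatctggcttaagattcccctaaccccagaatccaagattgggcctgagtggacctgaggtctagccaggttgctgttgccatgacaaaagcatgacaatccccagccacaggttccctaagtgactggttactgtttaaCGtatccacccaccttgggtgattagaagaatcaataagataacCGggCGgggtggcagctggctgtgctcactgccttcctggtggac
Hnf4a, downstream start: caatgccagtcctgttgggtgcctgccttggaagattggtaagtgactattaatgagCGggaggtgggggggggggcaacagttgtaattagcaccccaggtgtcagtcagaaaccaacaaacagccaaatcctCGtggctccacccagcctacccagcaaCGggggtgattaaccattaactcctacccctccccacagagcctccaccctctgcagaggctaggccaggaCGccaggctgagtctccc
Nr0b2: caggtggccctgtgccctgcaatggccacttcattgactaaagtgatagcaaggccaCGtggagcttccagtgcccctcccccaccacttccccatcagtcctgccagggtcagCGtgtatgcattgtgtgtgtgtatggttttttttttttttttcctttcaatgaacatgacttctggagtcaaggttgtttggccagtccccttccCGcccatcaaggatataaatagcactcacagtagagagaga
Nr1i3: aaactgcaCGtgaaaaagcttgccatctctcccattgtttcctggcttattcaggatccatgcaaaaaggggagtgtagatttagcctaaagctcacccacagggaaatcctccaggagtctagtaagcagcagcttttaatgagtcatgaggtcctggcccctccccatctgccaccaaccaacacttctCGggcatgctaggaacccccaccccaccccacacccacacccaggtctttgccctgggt

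The upstream window of *Rxra* held 40 CG pairs, at percentile 98.8 of all 32851 windows in the table, whereas its downstream window held 1. Those of *Hnf4a* held 3 and 4, that of *Nr0b2* 3 and that of *Nr1i3* 2. CG-dense promoters are known as a mark of broadly used genes and CG-poor ones are common among tissue-restricted genes. Windows were found for 33 receptors, and *Nr3c1*, *Hnf4g* and *Thra* had none in the table. The median was 10 CG pairs over the 49 windows of receptors and 6 over all windows.

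When protein-coding genes were put into 4 classes of similar size by their window with the most CG pairs, the share above 1 CPM was 14.3% in the lowest class (0 to 3 pairs). It was 43.1% in the next (4 to 12), 60.4% in the third (13 to 21) and 60.2% in the highest (22 to 56). Among receptors, 1 of 4, 4 of 10, 4 of 7 and 7 of 12 lay above 1 CPM in the same order. The lowest class held *Nr2f2*, *Nr1i2*, *Nr0b2* and *Nr1i3*. The highest held *Rxra*, *Ppard*, *Nr2f6* and *Esrra* with levels from 28.3 CPM up, but also *Nr4a2* with 44 pairs and 0.0127 CPM, *Thrb* with 30 pairs and 0.102 CPM, and *Rxrb*, listed at 0, with 39. These shares are a description, since genes share libraries and transcript numbers were not held fixed.

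**Figure D3:**
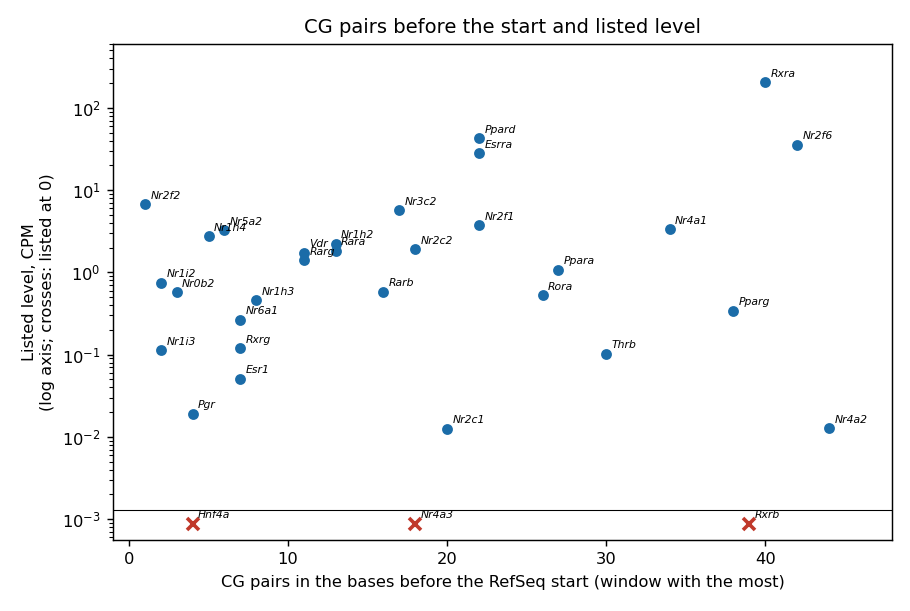
CG pairs in the 250 bases before the RefSeq start (the window with the most for each gene) against the listed level in CPM on a log axis, for the 33 receptors with a window. Crosses are genes listed at 0. *Rxra* and *Nr2f6*, with 40 and 42 pairs, are high, while *Nr4a2* with 44 pairs has 0.0127 CPM.

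Short motifs were searched in the same 250 bases on both strands. The GC box GGGCGG, which itself holds a CG pair, was in 24 of the 49 receptor windows (49.0%), against 32.7% of all windows. AGGTCA, the hexamer that most of these receptors recognise, was in 9 receptor windows (18.4%) from 8 genes, among them *Rxra*, *Nr1h4*, *Nr5a2* and *Pparg*, against 14.0% of all windows. TATAAA was in 6 (12.2%, against 12.4%), and *Nr0b2* was among them. CCAAT was in 16 (32.7%, against 33.8%). A match of letters is not a bound site.

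The receptors of fatty acids and retinoids pair with RXR. *Ppard*, which senses fatty acids in most tissues, lies on chromosome 17 from 28232700 to 28301474 and had 42.8 CPM (41.8 to 43.9, 6751 reads). *Ppara*, the receptor of the hepatic fasting response, had 1.07 CPM (0.917 to 1.25) from 169 reads. *Pparg*, the adipocyte receptor, had 0.342 CPM from 54 reads. Per kilobase *Ppard* stood 20.4 times above *Ppara* (17.5 to 23.9), or 36.6 times with the longest transcript and 42.5 times with coding length, and *Ppara* 2.42 times above *Pparg* (1.76 to 3.34). *Ppard* has 1 NM transcript, *Ppara* 2 and *Pparg* 4, so that the order of levels was also the order of transcript numbers.

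The retinoic acid receptors lay close together, with *Rara* at 1.84 CPM, *Rarg* at 1.41 CPM and *Rarb* at 0.581 CPM. *Rara* has 5 NM transcripts, *Rarg* 2 and *Rarb* 4, so that the order of levels was not the order of transcript numbers. *Rara* exceeded *Rarg* 1.27 times per kilobase (1.07 to 1.53), but the interval included 1 with the longest transcript (0.954 to 1.36), and *Rarg* exceeded *Rarb* 2.99 times (2.33 to 3.84). *Rarb* shared 34.1% of its exon bases with *Top2b*, a topoisomerase gene on the other strand listed at 313 CPM. The library kit did not keep the strand, so reads of that shared part cannot be assigned to either gene by strand.

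For thyroid hormone, *Thra* had 30.5 CPM (29.7 to 31.4, 4813 reads) and *Thrb*, the main form of adult liver, had 0.102 CPM from 16 reads. *Thra* lies on chromosome 11 from 98740638 to 98769006. Its ratio to *Thrb* per kilobase was 480, with an interval from 297 to 845 (756 with the longest transcript, 289 with coding length), and both genes have 2 NM transcripts. *Thra* shared 5.70% of its exon bases with *Nr1d1*, the clock receptor REV-ERBα on the opposite strand, which was listed at 3.44 CPM. *Vdr*, the vitamin D receptor, had 1.74 CPM from 274 reads.

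Receptors of bile acids, oxysterols and foreign compounds, the group most tied to mature liver function, were listed from 0.114 to 2.76 CPM. *Nr1h4* (FXR), the bile acid receptor, was the highest of them with 1.20 CPM per kilobase (2.76 CPM, 2.51 to 3.03, 435 reads), followed by the oxysterol receptor *Nr1h2* (LXRβ) with 0.667 CPM per kilobase (2.24 CPM). *Nr1h3* (LXRα), the form known from liver, had 0.458 CPM, and *Nr1h2* exceeded it 3.66 times per kilobase (2.84 to 4.79). *Nr1i2* (PXR) had 0.748 CPM from 118 reads and *Nr1i3* (CAR) 0.114 CPM from 18 reads, a ratio of 11.3 per kilobase (6.87 to 19.8), or 5.45 with coding length. Exons of *Nr1i3* shared 74.9% of their bases with *Tomm40l*, a gene on the other strand at 0.772 CPM. *Nr0b2* (SHP), which has no DNA-binding domain and silences other receptors downstream of FXR, had 0.574 CPM from 90 reads. *Nr0b2* has 1 NM transcript and *Nr1i2* 2, while *Nr1h3*, *Nr1h4* and *Nr1i3* have 3 each and *Nr1h2* has 4. Thus *Nr1h2* had both the higher level and more transcripts than *Nr1h3*.

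Of the corticosteroid receptors, *Nr3c2*, the mineralocorticoid receptor, had 5.74 CPM (5.37 to 6.12) and *Nr3c1*, the glucocorticoid receptor, 2.10 CPM (1.88 to 2.34). The ratio was 3.24 per kilobase (2.85 to 3.69). *Nr3c2* has 1 NM transcript and *Nr3c1* has 5. The sex steroid receptors were near the bottom, with *Esr1* at 8 reads and *Pgr* at 3 reads.

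Among orphan receptors, *Nr2f6* (EAR2), a relative of the COUP-TF repressors, was the highest with 35.7 CPM (34.8 to 36.7, 5628 reads). It lies on chromosome 8 from 71374123 to 71381960. *Nr2f2* (COUP-TFII) had 6.77 CPM and *Nr2f1* (COUP-TFI) 3.74 CPM. *Nr2f6* has 1 NM transcript, *Nr2f2* 2 and *Nr2f1* 3, so that the order of levels was also the order of transcript numbers. Per kilobase *Nr2f6* stood 15.3 times above *Nr2f2* (14.3 to 16.3), and *Nr2f2* 1.07 times above *Nr2f1* (0.965 to 1.18). The first ratio was 10.1 with the longest transcript and 5.60 with coding length. The second was 1.38 (1.24 to 1.52) and 1.84 (1.66 to 2.03), so that the interval included 1 with the union of exons and not with these other lengths. Exons of *Nr2f6* shared 54.4% of their bases with *Ocel1* on the other strand, itself listed at 1.31 CPM. *Esrra*, which drives genes of mitochondrial respiration, had 28.3 CPM (27.5 to 29.1, 4457 reads) and lies on chromosome 19 from 6910977 to 6921813.

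The immediate-early receptor *Nr4a1* had 3.34 CPM from 526 reads, *Nr4a2* had 2 reads and *Nr4a3* was listed at 0. *Nr4a1* has 1 NM transcript, and *Nr4a2* and *Nr4a3* have 2 each. *Nr5a2* (LRH-1), a regulator of bile acid synthesis, had 3.28 CPM. *Nr2c2* (TR4) had 1.92 CPM from 303 reads against 2 reads of its partner *Nr2c1* (TR2), and *Nr2c2* shared 30.7% of its exon bases with *Mrps25*, a mitochondrial ribosomal gene at 56.8 CPM on the other strand. *Rora* had 0.524 CPM and *Nr6a1* (GCNF) 0.267 CPM.

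The HNF4 pair stood out against the tissue. *Hnf4g*, known mainly from gut, had 4.27 CPM (3.95 to 4.60, 673 reads) and 1 NM transcript. *Hnf4a*, on chromosome 2 from 163506808 to 163572910, has 3 NM transcripts and was listed at 0. Genes known as targets of HNF4α spread widely, with *Apoa1* at 5096 CPM and *Ttr* at 2590 CPM (1 NM transcript each), *Apoc3* (4) at 2.51 CPM and *Serpina1a* (2), which has near-identical copies and is therefore uncertain, at 5 reads. Other hepatocyte factors ranged from *Foxa2* (3 NM transcripts) at 0.445 CPM to *Cebpa* (5) at 179 CPM.

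**Figure D4:**
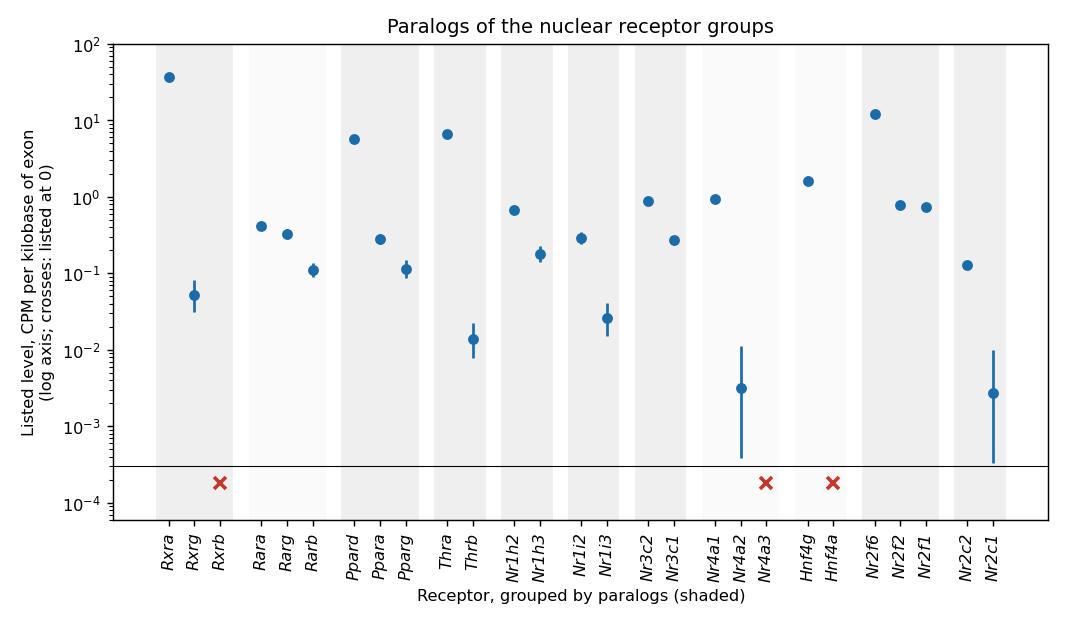
Listed level in CPM per kilobase of exon (log axis) for the receptors with paralogs, grouped by shading, with 95% Poisson intervals of the estimated reads. Crosses are genes listed at 0. The highest member exceeded the next by 722 times in RXR and 480 times in the thyroid hormone receptors, but by 1.27 times in RAR, all with the union of exons as the length.

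The counts for lists of genes from here on stand beside 44.0% of protein-coding rows above 1 CPM and 22.2% listed at 0. Of 13 further nuclear receptor genes, 6 were listed at 0 and 2 lay above 1 CPM. These were the clock receptors *Nr1d2* at 8.98 CPM and *Nr1d1* at 3.44 CPM, within the range of the 36. *Nr0b1* had 24 reads and *Esrrg* 4 reads.

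Coregulators spread as widely as the receptors. Of 14 coactivator genes, 6 lay above 1 CPM, near the share of protein-coding rows. They were led by the acetyltransferase genes *Ep300* at 202 CPM and *Crebbp* at 50.2 CPM, with *Ncoa3* at 33.5 CPM and *Med1* at 21.6 CPM. *Ppargc1a* (PGC-1α), the coactivator of fasting metabolism, was listed at 0. Among 9 corepressor genes, 6 lay above 1 CPM, with *Gps2* at 91.6 CPM, *Tbl1x* at 87.6 CPM and *Hdac3* at 48.2 CPM as the highest, while *Ncor1* had 8.91 CPM and *Tbl1xr1* 0.228 CPM. The 4 coactivators with 1 NM transcript were *Ep300*, *Crebbp*, *Ncoa1* (0.719 CPM) and *Ppargc1a*. Their median of 25.5 CPM lay between distant values. The 10 with more had a median of 0.636 CPM, but *Ncoa3* (2 NM transcripts) and *Med1* (5) were among them. Chaperones that hold steroid receptors ready for ligand had the highest median of the 6 pathway lists (126 CPM), with 6 of 7 above 1 CPM and *Hsp90ab1* at 3294 CPM, whereas *Hsp90aa1*, with 1 NM transcript, had 0.588 CPM.

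Of 16 genes of hormone and ligand supply, 8 lay above 1 CPM. The retinoic acid-forming enzyme gene *Aldh1a2* had 5.57 CPM, whereas *Cyp26a1*, which breaks retinoic acid down, had 0.310 CPM. *Hsd11b1*, which regenerates active glucocorticoid, had 5 reads. *Dio2* and *Dio3*, which activate and inactivate thyroid hormone, had 1.42 and 0.720 CPM.

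Known target genes ranged from 0 to 5096 CPM, with 16 of 34 above 1 CPM, near the share of protein-coding rows. Targets of the oxysterol receptors were among the high ones, with the cholesterol exporter *Abca1* at 469 CPM, *Mylip* at 73.2 CPM and *Abcg1* at 34.9 CPM, although *Srebf1*, with 4 NM transcripts, had 1 read. The bile acid enzymes *Cyp7a1* and *Cyp8b1* had 5.52 and 6.78 CPM, and *Cyp3a11*, a target of PXR, 27.2 CPM. *Cyp2b10*, a target of CAR, was listed at 0. The *Cyp3a* and *Cyp2b* genes have close relatives that can share reads, so both values are uncertain. Of the PPARα targets, *Cpt1a* had 77.0 CPM and *Pdk4* 13.2 CPM, while *Cyp4a10* and *Angptl4* were listed at 0. The gluconeogenic genes *Pck1* and *G6pc* had 29 and 30 reads.

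**Figure D5:**
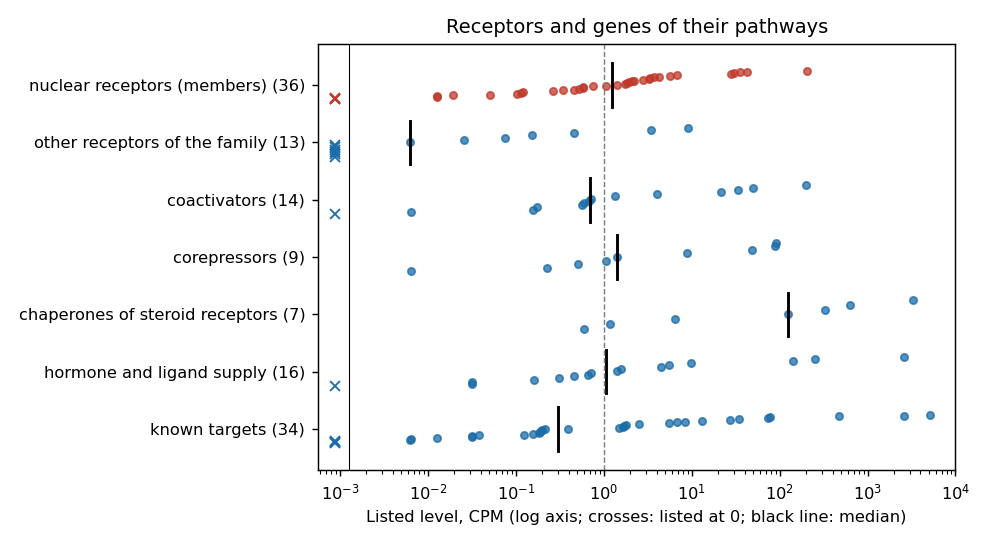
Listed level in CPM (log axis) of the 36 receptors (red) and of 6 lists of pathway genes (blue), with the number of genes in brackets, the median as a black line and genes listed at 0 as crosses. The receptor median is 1.24 CPM, that of chaperones 126 CPM and that of known targets 0.303 CPM.

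Markers of several cell types were listed, so these levels are averages over a mixed tissue. Hepatocyte markers were listed with 7 of 8 above 1 CPM and a sum of 131095 CPM. Of 8 erythroid markers, 5 were found by symbol, with a sum of 3480 CPM. The globin genes *Hba-a1*, *Hbb-bt* and *Hbb-bs* were not found by symbol. The erythroid sum leaves them out, so it cannot be set against the hepatocyte sum. All 4 granulocyte markers (38.1 to 758 CPM), all 3 megakaryocyte markers (4.84 to 150 CPM) and all 3 B cell markers (4.57 to 14.2 CPM) lay above 1 CPM. Of the endothelial markers 4 of 6 did so, of the mesenchymal 6 of 7, of the macrophage 2 of 5 and of the cholangiocyte or hepatoblast 5 of 6. Acinar pancreas (3 of 5, up to 13.6 CPM), intestine (2 of 4, up to 15.3 CPM) and adrenal or gonad (3 of 5, up to 5.27 CPM) also had markers above 1 CPM, and none of 4 endocrine pancreas markers exceeded 0.176 CPM. Which of these cells gave the reads of a receptor was not tested.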

How the data were processed

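PolyA-selected RNA of 12 fetal livers (6 control, 6 HFD) was sequenced from libraries that do not keep the strand. Per the labels, the authors trimmed with cutadapt 1.2.1, aligned to mm10 with Subread 1.3.6-p1 and used edgeR. The counter, the annotation release and the normalization are not given in the sources used here. The authors deposited 1 table. Its average log2 CPM over all libraries was used. Its other 8 columns hold the authors' own comparison of the diets (log2 fold changes, signed fold changes, p-values and adjusted p-values) and were not used, so the diets were not compared. A test between diets had been planned only for counts of single livers, which the table does not hold.

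The lowest log2 CPM, -2.71, was shared by 11091 rows and taken as the prior count without reads. The step of the 1267 single-read rows gave a prior of 2.00 per library. Subtracting the lowest value on the linear scale gave CPM, and estimated reads followed. Of 4222 rows with 1 to 10 reads, 99.7% came within 0.1 of a whole number. The calculation was tested on data simulated with the same prior, so that test does not bear on whether this prior was used by the authors. Intervals are 95% exact Poisson for levels and exact binomial for ratios, and cover counting error only. PCR copies are not independent molecules.

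Lengths and positions came from GENCODE M21 (GRCm38, the build of mm10), which matched 21025 symbols. Transcript numbers and start windows came from RefSeq GRCm38.p6, which matched 20855. All members are named. Pathway genes are named where they lay above 1 CPM or at the ends of a list, and reference genes such as *Gapdh* and *Foxa2*, with some low pathway genes, were chosen after their values were seen. The members and lists were chosen with earlier results of these data known. Computation was in Python 3.11.15 (scipy 1.17.1, pandas 2.3.3, numpy 2.4.6), and plots were drawn with matplotlib 3.10.9.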

Additional observations from a re-analysis of the deposited data

How the results depend on the processing

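The number of receptors with reads (33) became 29 with at least 12 reads required, and the number above 1 CPM (19) ranged from 14 at 2 CPM to 23 at 0.5 CPM. The median percentile of the 33 receptors with reads was 56.0. It was 69.5 among all rows with the 3 genes at 0 included, and 24.2 for the 19 receptors above 1 CPM among rows above 1 CPM. Among protein-coding genes with reads it was 49.4, and without the 11 receptors that overlap another gene 52.2. For all 36 receptors, each among protein-coding genes with the same number of NM transcripts, it was 58.6. That background was chosen after seeing the data and, unlike the others with reads, includes genes without reads. For the 10 receptors with 1 NM transcript among genes with 1 and with reads, also chosen after seeing the data, it was 47.8. The median level per kilobase, 0.286 CPM, became 0.824 CPM with coding length, which is shorter than the union of exons for every gene. The 5 highest receptors held 86.6% of the summed level per kilobase, 88.1% of the summed CPM and 83.5% when all receptors of the family were summed. All 21 orders within paralog groups, 5 of them against a gene listed at 0, held in CPM and with each length. The sizes did not hold as well. Of the 16 ratios, 9 moved by over 1.5 times in CPM or with another length (the longest transcript or coding length). No paired analysis was possible because the table holds no values of single livers and no result comes from a test. Depth limits the receptors with 2 to 19 reads, and leaving out single livers was not possible.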
